A study of Mus musculus with 18 samples.

Results

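The genes described here are 31 immediate early genes, most of them transcription factor genes, whose mRNAs are short-lived. They were taken by name from the deposited table of 47937 gene IDs. All 31 were found in it, and all 31 were among the 16216 genes that passed the filter on low counts. They comprise the Fos family (Fos, Fosb, Fosl1, Fosl2), the Jun family (Jun, Junb, Jund), the Egr zinc fingers (Egr1, Egr2, Egr3) and the Nr4a orphan nuclear receptors (Nr4a1, Nr4a2, Nr4a3). The Krüppel-like factors Klf2, Klf4, Klf6 and Klf10, the small Maf genes Maff and Mafk, and Atf3, Myc and Srf are also included. So are Ier2, Ier3, Ier5, Dusp1, Zfp36, Zfp36l1, Arc, Csrnp1 and Phlda1.

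The cells were mouse embryonic fibroblasts in which dCas9, a Cas9 that binds but does not cut DNA, could be switched on with doxycycline and was aimed at the major satellite repeat (MSR), the repeat that fills pericentromeric heterochromatin. In the activator line, which carried the transcriptional activator dCas9-VPR, 3 libraries came from cells induced with 10 ng/ml doxycycline for 6 h and 3 from uninduced cells. The repressor line, which carried the transcriptional repressor dCas9-KM, gave 3 libraries induced with 100 ng/ml for 24 h and 3 uninduced libraries. In the control line, which carried dCas9 with no effector named, 3 libraries were induced with 10 ng/ml for 24 h and 3 were uninduced. Cells for all 18 libraries were grown in hygromycin and tetracycline-free serum, and the labels do not say whether a line is 1 clone or whether libraries of a group came from separate cultures. The p-values therefore measure the spread between these libraries only, which may be technical. Dose, time and line differ together: a difference between lines in the response cannot be told apart from a difference in time (activator) or in dose (repressor).

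Immediate early genes are switched on within minutes of a growth factor, stress or calcium signal without new protein synthesis. Kinases of the MAPK pathways activate ternary complex factors that sit with serum response factor (SRF) on CArG boxes, and CREB on cyclic AMP response elements (CRE), in front of these genes. FOS and JUN proteins pair to form AP-1, and the EGR, NR4A and KLF proteins are DNA-binding factors that carry the signal to later genes. The response ends quickly because many of the mRNAs carry AU-rich elements, which proteins of the ZFP36 family bind to start decay, and because DUSP1 removes phosphate from the MAP kinases. In cultured fibroblasts the classical trigger is serum added back after starvation.

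The sequence features that define such genes were looked for first. RefSeq promoter windows (GRCm38.p6, 250 bases before to 50 after a transcript start) were matched by symbol for 23 of the 31 members. No window was matched for Arc, Egr1, Egr3, Fosl1, Myc, Ier2, Klf10 or Phlda1, so their promoters were not searched. Only exact matches inside the windows were counted, so sites further away or with a mismatch were not seen. A CArG box was found in 3 of the 23 (13%), Egr2, Srf and Zfp36, against 1.6% of the 10288 tested genes with a window. The CRE (TGACGTCA) was found in 2 of the 23 (8.7%), Maff and Dusp1, against 3.53%. For a gene with several windows, a site in any of them counted. Maff also had windows starting at 79346371 and 79348152 on chromosome 15, which held no CRE. Which transcript start the cells used was not tested. The AP-1 site TGANTCA was in 2 of the 23 (8.7%) against 6.22%, and TATAAA, searched on both strands, in 5 of the 23 (21.7%) against 8.69%. A TATAAA can lie inside a CArG box, but here it did not. Of the 5 members with TATAAA (Fos, Junb, Nr4a2, Srf and Zfp36l1), only Srf had CArG boxes, and its TATAAA lay outside them. The windows below are those of the members with a CArG box or a CRE whose change in the activator line passed the test, Maff and Zfp36. Srf, the gene of the CArG-binding factor itself, was added after its values were seen because its window holds 2 CArG boxes. Capitals mark the CRE in Maff, which starts 29 bases before the transcript start, and the CArG boxes in Zfp36 (58 bases before) and in Srf (82 and 62 bases before).
Maff, chr15:79347270-79347569, plus strand: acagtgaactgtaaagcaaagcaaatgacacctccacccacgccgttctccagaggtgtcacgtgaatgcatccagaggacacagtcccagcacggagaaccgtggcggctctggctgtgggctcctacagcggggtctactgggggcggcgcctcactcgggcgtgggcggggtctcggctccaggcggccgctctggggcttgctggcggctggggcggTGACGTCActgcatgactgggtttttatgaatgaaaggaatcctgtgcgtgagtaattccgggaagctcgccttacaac
Zfp36, chr7:28379179-28379478, minus strand: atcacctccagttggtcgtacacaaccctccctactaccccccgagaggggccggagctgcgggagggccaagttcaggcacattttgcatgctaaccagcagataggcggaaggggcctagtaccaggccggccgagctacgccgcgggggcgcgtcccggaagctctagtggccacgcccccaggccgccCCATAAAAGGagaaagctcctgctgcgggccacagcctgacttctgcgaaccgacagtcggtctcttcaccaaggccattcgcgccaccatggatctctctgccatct
Srf, chr17:46556113-46556412, minus strand: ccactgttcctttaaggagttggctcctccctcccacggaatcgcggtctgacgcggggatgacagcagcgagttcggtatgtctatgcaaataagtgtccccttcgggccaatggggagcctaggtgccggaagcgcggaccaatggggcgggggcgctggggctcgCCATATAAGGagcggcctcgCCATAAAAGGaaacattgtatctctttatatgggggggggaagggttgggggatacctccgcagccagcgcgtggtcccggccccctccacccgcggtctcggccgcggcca

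For the short life of the mRNAs, the annotated 3′ UTRs (GENCODE M21, GRCm38) were searched for the AU-rich heptamer UAUUUAU, the core bound by ZFP36 proteins. It was present in 20 of the 31 members (64.5%), against 28.6% of 12295 tested coding genes with a 3′ UTR. The median 3′ UTR length was 1186 bases in the members and 1021 bases in those genes, and per kilobase there were 0.849 and 0.293 heptamers. Ier3 had the most with 4, followed by Fosl2, Dusp1, Zfp36 and Zfp36l1 with 3 each. The stretches of 30 bases below, with heptamers in capitals, are from members whose changes are described next. Those of Ier3 and Zfp36 hold 2 heptamers each, and Zfp36 thus carries the element that its own protein binds.
Fos, chromosome 12: auuUAUUUAUuaagauggauucucagauau
Ier3, chromosome 17: uaaUAUUUAUgUAUUUAUguauauccuccu
Zfp36, chromosome 7: cuuUAUUUAUgacgacuuUAUUUAUuguau
Zfp36l1, chromosome 12: acgUAUUUAUugccaaacuaugcuuuuuuu
Dusp1, chromosome 17: ccuUAUUUAUuuaacaccccccucaccccc
Fosl1, chromosome 19: ugcUAUUUAUuuuccuaaagagacuauuuu
Maff, chromosome 15: ucuUAUUUAUugcacgaaucuaaguuauuc

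Each library held between 14928765 and 25262912 counts. Levels are given as CPM, read counts relative to library size after TMM scaling. A gene is said to rise or fall where the edgeR quasi-likelihood test gave a Benjamini-Hochberg adjusted p under 0.05 over 16216 genes, and an interval is the 95% interval of a log2 fold change. The 3 induced activator libraries stood apart from the other 15. Between 22641 and 23420 genes had a count in them, against 20107 to 21331 in the others. The most abundant gene took 16.2% to 18.5% of their counts, against 9.3% to 12.1%, and mitochondrially encoded genes took 0.92% to 0.974%, against 0.582% to 0.676%. Of the 11 fibroblast markers, 9 passed the filter on low counts, and Thy1 had no count in 5 of the 6 groups. Among markers of other cell types, the 6 endothelial markers summed to 19.2 to 24.1 CPM in the induced activator libraries and to at most 1.3 CPM elsewhere. Nearly all of that sum was Pecam1, at 21.3 CPM against 0.274 CPM in uninduced activator cells, while Tie1 and Emcn had no count in either group. With the activator induction both of the 2 endothelial markers tested rose. Of 5 macrophage markers tested, 2 rose and 1 fell, and of 3 muscle and 3 neural markers, 1 of each rose and 1 of each fell. Over all genes tested, 38.2% rose and 37.2% fell. The macrophage markers summed to 9.6 to 10.5 CPM in induced activator libraries and to at most 8.805 CPM elsewhere. In bulk RNA, fewer cells expressing a gene and less RNA per cell cannot be told apart.

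In the uninduced control cells the 31 genes covered a wide range. Per kilobase of exon, Jund was the most abundant at 50.4 CPM per kb, followed by Myc at 39.2, Zfp36l1 at 39.1, Srf at 35.6 and Phlda1 at 31.1 CPM per kb. Some classical serum-response genes were near the bottom of this order: Fos was at 0.863, Egr2 at 0.426, Egr3 at 0.298, Arc at 0.235 and Fosb at 0.0912 CPM per kb. Nr4a3 was the lowest at 0.0455 CPM per kb. Others stood higher in the order, such as Junb at 22, Egr1 at 18.1 and Jun at 15.3 CPM per kb. Neighbours in this order such as Myc and Zfp36l1 lay within the spread of their libraries.

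Induction of the activator split the immediate early genes. Arc, Egr1, Fos, Atf3 and Fosb rose by 1.84-fold to 6.8-fold, while Myc, Zfp36l1, Fosl2, Phlda1, Fosl1 and Klf4 fell by 3.05-fold to 4.76-fold. In all, 10 of the 31 members were higher and 15 were lower, and 6 (Jun, Egr2, Klf2, Klf10, Srf and Dusp1) were not called. Over all genes tested, 38.2% were called higher and 37.2% lower in this comparison, so the share called higher (32.3% of the members) was near the background and the share called lower (48.4%) was above it by an amount that was not tested. The members' median log2 fold change was −0.23, beside 0.00 over all genes. Nr4a3 was at or over the filter level in only 2 of the 15 libraries outside the induced activator group, fewer than the 3 libraries the filter needs. It was therefore tested only because of the group in which it was high, and without it 9 of the other 30 members were called higher.

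Arc, which encodes a capsid-forming regulator of synaptic receptors and is best known in neurons, had the largest rise. It was at 6.16, 5.4 and 5.93 CPM in the 3 induced activator libraries, against 0.728, 0.91 and 0.972 CPM in the uninduced ones. The groups were far apart: the log2 fold change was 2.77 (SE 0.20, adjusted p = 1.52e-22), 6.8-fold. The gene (ENSMUSG00000022602.14) lies on chromosome 15 at 74669083 to 74672570. In all 12 libraries of the other 2 lines Arc stayed at or below 1.84 CPM.

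Egr1, a zinc finger factor that is among the first genes to answer serum, was the most abundant riser. Its level was 289, 314 and 303 CPM in induced activator cells, against 90, 89.5 and 94.2 CPM in uninduced activator cells. No library of the uninduced group came near the induced ones, and the change was 3.32-fold (adjusted p = 8.62e-62, log2 fold change 1.73 with SE 0.03). Egr1 (ENSMUSG00000038418.7) is on chromosome 18 at 34859823 to 34864984. Its paralog Egr2 was not called (2.2 ± 0.23 CPM against 1.83 ± 0.15 CPM, SD, n = 3 each, adjusted p = 0.209). Egr3 fell, at 0.825 ± 0.335 CPM against 1.39 ± 0.202 CPM, but its groups overlapped (log2 fold change −0.72, adjusted p = 0.0201). Without uninduced library 1, induced library 2 or induced library 3 Egr3 was not called (adjusted p = 0.0729, 0.093 and 0.108), nor with DESeq2 (adjusted p = 0.124). Egr1 made up 98.8% of the family's summed level per kb in induced activator cells, against 96% in uninduced ones, and the sum itself was 68.2 ± 2.59 against 21.2 ± 0.608 CPM per kb.

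The Fos family changed its composition. Fos, the founding AP-1 subunit, was at 5, 5.47 and 5.31 CPM in induced activator libraries, against 1.15, 2.03 and 2.25 CPM in uninduced ones. All induced values lay above all uninduced values in this line and in the others (adjusted p = 1.12e-11, log2 fold change 1.59 with SE 0.18, 3-fold). Fosb, its closest relative, had 1.65, 0.8 and 1.23 CPM in induced libraries, against 0.498, 0.703 and 0.911 CPM in uninduced ones. These groups overlapped, and the rise (adjusted p = 0.00664, log2 fold change 0.88 with SE 0.30) was lost without uninduced library 1 (adjusted p = 0.0675), without induced library 1 (adjusted p = 0.108) and with DESeq2 (adjusted p = 0.071).

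The more abundant members, Fosl1 and Fosl2, which encode the AP-1 subunits FRA-1 and FRA-2, moved the other way. Fosl2 (ENSMUSG00000029135.10, chromosome 5, 32135801 to 32157842) had 54, 55.4 and 59.4 CPM in induced activator libraries, against 188, 196 and 186 CPM in uninduced ones. Fosl1 (ENSMUSG00000024912.5, chromosome 19, 5447547 to 5455946) had 13.9, 12.8 and 11.7 CPM against 41.9, 40.1 and 40.8 CPM. Both fell with no overlap, Fosl2 by 1.75 on the log2 scale (SE 0.04, adjusted p = 1.21e-58) and Fosl1 by 1.68 (SE 0.07, adjusted p = 1.24e-38). Fosl1 overlaps Ccdc85b on the opposite strand, which fell by 1.35 on the log2 scale (adjusted p = 5.2e-25), and the strand setting of the counting is not given in the sources used here. Per kb, Fos took 15.4% ± 0.913 of the family's level in induced activator cells, against 1.89% ± 0.609 in uninduced ones (SD, n = 3 each). The summed family level was 14.5 ± 0.251 against 40.6 ± 0.256 CPM per kb, so the summed level was lower while Fos and Fosb were higher.

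**Figure D1:**
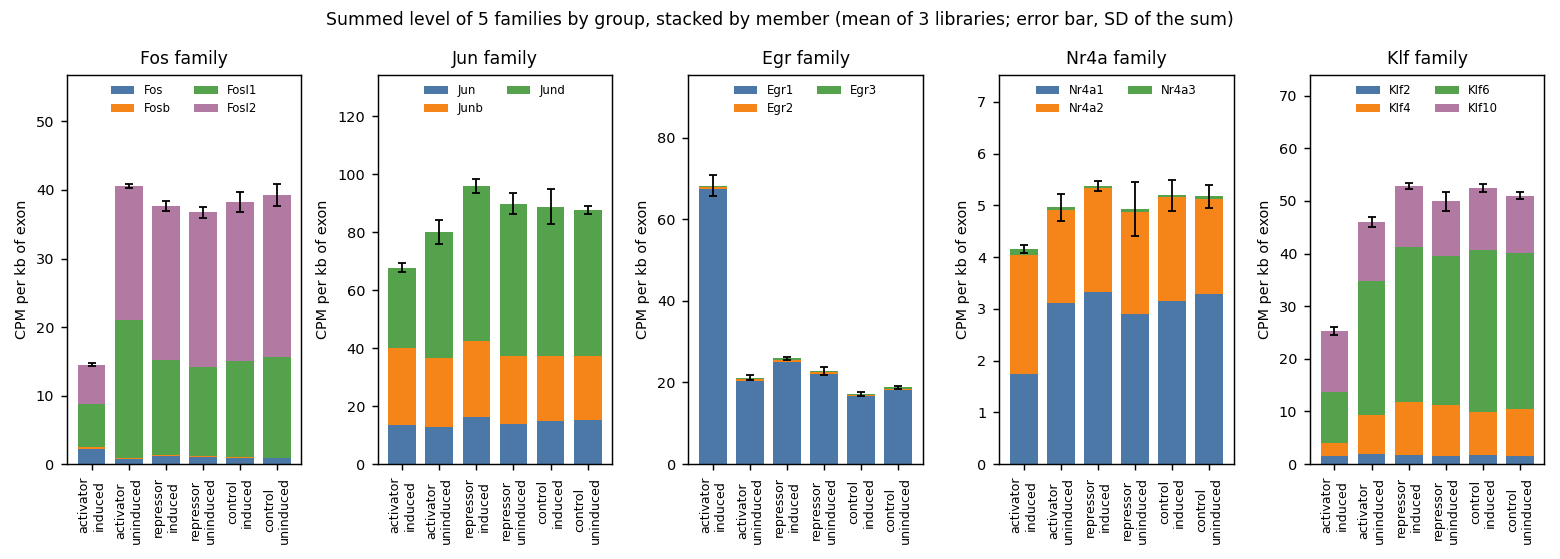
Summed level of the Fos, Jun, Egr, Nr4a and Klf families (y axis, CPM per kb of exon) in the 6 groups, induced left of uninduced in each line. Bars are means of 3 libraries stacked by member and error bars are the SD of the sum; in induced activator cells the Fos family sum was 14.5 against 40.6 CPM per kb and the Egr family sum 68.2 against 21.2 CPM per kb in uninduced activator cells.

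The Jun partners changed less. Jun was not called (42.6 ± 3.38 CPM induced against 41 ± 1.61 CPM uninduced, adjusted p = 0.38), and Jund, the most abundant Jun gene, was lower at 46.3 ± 1.88 against 72.4 ± 4.54 CPM (log2 fold change −0.64, adjusted p = 3.7e-20). Junb, at 61.2 ± 2.44 against 54.9 ± 2.85 CPM, was called higher by a small margin (log2 fold change 0.15, adjusted p = 0.0364). Junb was no longer called without uninduced library 1 or 3 (adjusted p = 0.141 and 0.0715) and without induced library 1 or 2 (adjusted p = 0.138 and 0.0984), and with counts scaled to library totals Junb was at −0.07. Junb also overlaps the more highly counted Prdx2 on the opposite strand, which rose by a log2 value of 0.38. Of the summed Jun family level per kb, Junb took 39.3% and Jund 41% in induced activator cells, against 29.8% and 54.1% in uninduced ones.

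Of the other stress and signal factors, Atf3, an ATF family factor induced by stress, had 7.81, 8 and 6.64 CPM in induced activator libraries, against 3.6, 3.76 and 4.31 CPM in uninduced ones. The groups did not overlap (adjusted p = 1.21e-10, log2 fold change 0.95 with SE 0.13), and induced control cells were at 6.23 ± 0.385 CPM. With mitochondrial scaling the rise of Atf3 was not called (adjusted p = 0.127). The Nr4a receptors diverged from each other. Nr4a3 was at 0.605, 0.533 and 0.613 CPM against 0.23, 0.207 and 0.364 CPM, a rise (adjusted p = 0.0191, log2 fold change 1.18 with SE 0.47) that was lost without uninduced library 1 or 2 (adjusted p = 0.0607 and 0.0647) and with DESeq2 (adjusted p = 0.136). Single libraries of uninduced repressor and control cells reached 0.587 and 0.59 CPM, above 1 of the 3 induced activator libraries and below the other 2. As stated above, Nr4a3 was tested only because of the group in which it was high. Nr4a2 rose to 9.41 ± 0.455 against 7.31 ± 0.57 CPM (log2 fold change 0.37, adjusted p = 0.00168), a call lost with counts scaled to library totals (adjusted p = 0.218). Nr4a1, the most abundant of the 3 per kb in uninduced cells, fell to 6.09 ± 0.423 against 10.9 ± 0.778 CPM (log2 fold change −0.83, adjusted p = 4.53e-12). Nr4a2 consequently held 55.9% of the family's level per kb in induced activator cells, against 36.3% in uninduced ones. Maff and Csrnp1, a small Maf factor without a transactivation domain and a nuclear protein first found as a target of AXIN1, rose by log2 values of 0.62 and 0.61.

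**Figure D2:**
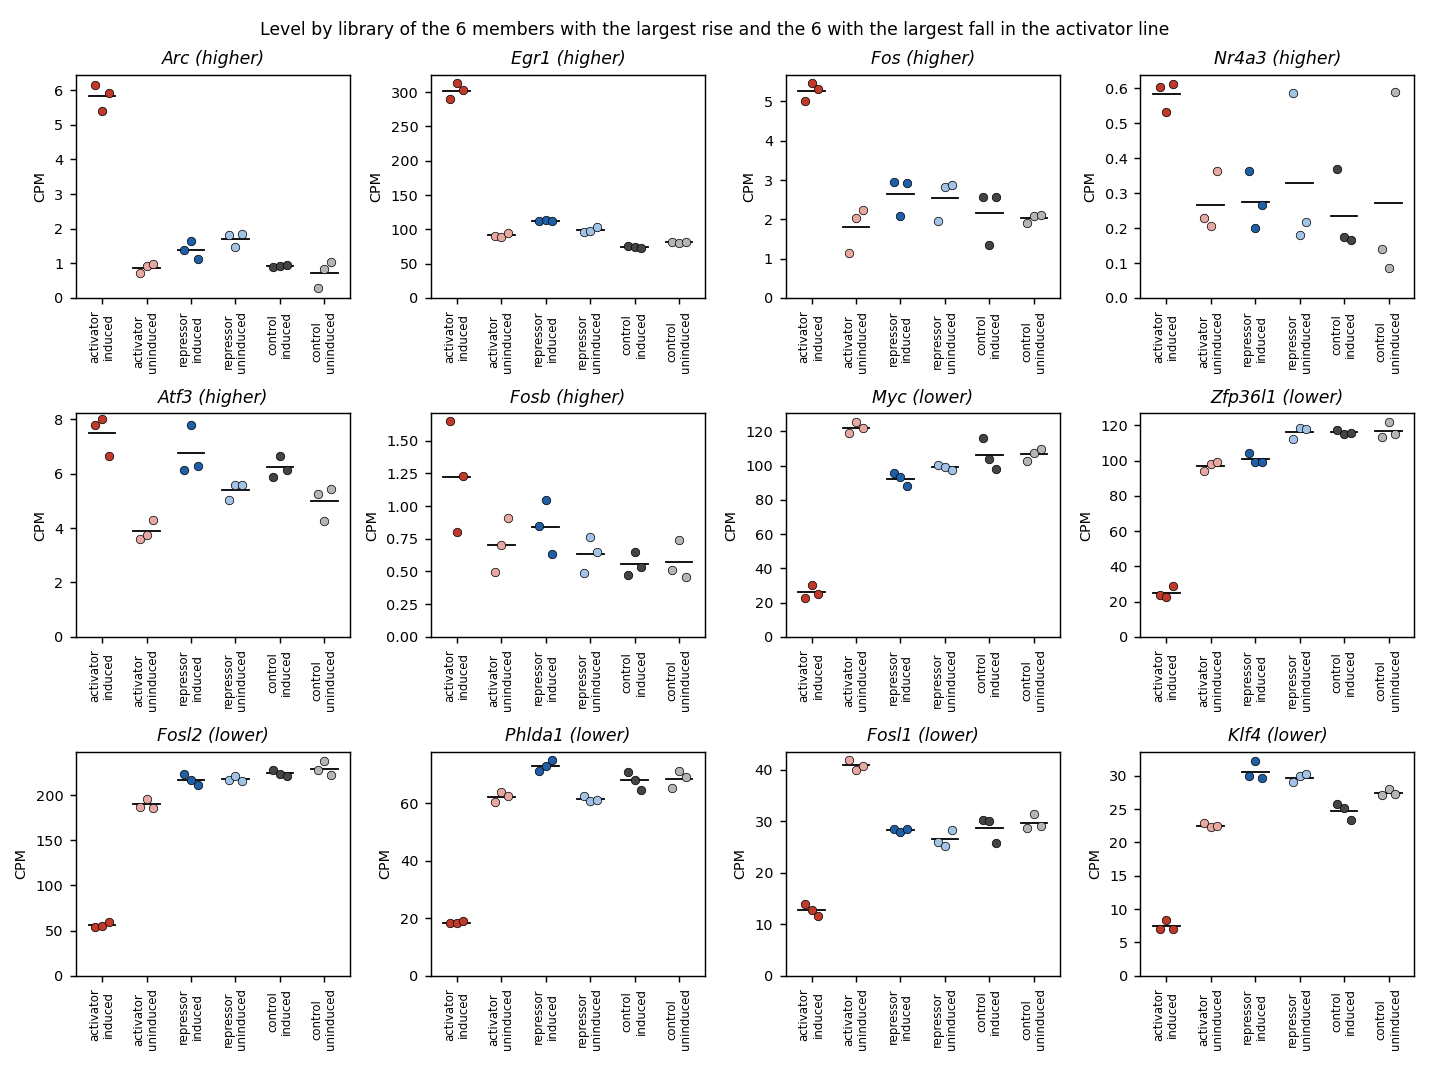
CPM per library (y axis, from 0) of the 6 members with the largest rise and the 6 with the largest fall in the activator line. Each point is a library, lines are group means and induced groups stand left of uninduced ones; induced activator libraries were at 289 to 314 CPM for Egr1 and 22.5 to 30.2 CPM for Myc, against 89.5 to 94.2 CPM and 119 to 125 CPM in uninduced activator libraries.

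Myc, the growth-promoting factor, fell furthest. It had 22.5, 30.2 and 24.9 CPM in induced activator libraries, against 119, 125 and 122 CPM in uninduced ones, and the groups were widely separated. The fall was 4.76-fold (adjusted p = 1.53e-13, log2 fold change −2.25 with SE 0.08; ENSMUSG00000022346.14, chromosome 15, 61985391 to 61990374). Zfp36l1, whose protein binds AU-rich elements, followed with 23.6, 22.6 and 29.1 CPM against 94.3, 98 and 99.3 CPM (adjusted p = 2.62e-41, log2 fold change −1.94 with SE 0.05). Its paralog Zfp36 (tristetraprolin) fell less, by 0.42 on the log2 scale (8.98 ± 1.47 against 12.2 ± 1.48 CPM, adjusted p = 0.000199). Dusp1, the MAP kinase phosphatase, was at 5.65 ± 0.22 against 6.71 ± 0.481 CPM and was not called (adjusted p = 0.0575). It was called lower with library totals (adjusted p = 0.000354), mitochondrial scaling (adjusted p = 9.16e-16) and no filter (adjusted p = 0.0362), and without uninduced library 2 (adjusted p = 0.0362). Dusp1 overlaps the more highly counted Ergic1 on the opposite strand, which rose by 0.265 on the log2 scale (adjusted p = 2.73e-13). The strand setting of the counting is not given, and any share of Ergic1 reads in the Dusp1 counts was not tested.

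Phlda1, which encodes a pleckstrin homology-like protein, had 18.2, 18.3 and 18.9 CPM in induced activator libraries, against 60.4, 64 and 62.6 CPM in uninduced ones. Induced libraries differed among themselves by under 1 CPM, and the fall was 3.37-fold (adjusted p = 2.55e-47, log2 fold change −1.75 with SE 0.05). Klf4, a Krüppel-like factor known from growth arrest and reprogramming, had 6.98, 8.34 and 7 CPM against 22.8, 22.2 and 22.5 CPM (adjusted p = 2.16e-32, log2 fold change −1.61 with SE 0.08). Klf6 also fell, by 1.40 on the log2 scale, whereas Klf10, the TGF-beta-inducible member, had 48.7 ± 3.17 against 47 ± 1.23 CPM and was not called (adjusted p = 0.27). Klf2 was at 2.96 ± 0.594 against 3.49 ± 0.148 CPM (adjusted p = 0.169). The Klf sum was 25.3 ± 0.739 against 46.1 ± 0.983 CPM per kb, and Klf10 made up 46% of it in induced activator cells, against 24.4% in uninduced ones.

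The 3 Ier genes all fell, Ier5 by 1.34, Ier3 by 0.73 and Ier2 by 0.22 on the log2 scale, the fall of Ier2 being lost with upper-quartile scaling (adjusted p = 0.0901). Mafk, the partner paralog of Maff, fell by 1.49 on the log2 scale, so the 2 small Maf genes moved in opposite directions. Srf, the hub through which serum reaches these genes, was not called, at 97.2 ± 5.9 against 94.7 ± 4.33 CPM (adjusted p = 0.359, log2 fold change 0.04 with interval −0.04 to 0.12). The heptamer UAUUUAU was present in 7 of the 10 members that rose, 8 of the 15 that fell and 5 of the 6 not called. The 7 include Nr4a3, which was tested only because of the group in which it was high. Whether these shares differ was not tested. Among the 23 members with a promoter window, the CArG-bearing Egr2 and Srf were not called and Zfp36 fell. The CRE-bearing Maff rose and Dusp1 was not called. The promoters of Arc, Egr1 and Myc were not searched, so whether the members with the largest changes carry these sites was not tested.

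The scale on which libraries are compared bears on the smaller of these changes. With library totals the median of all genes in the activator induction was −0.22, with upper-quartile scaling 0.11 and with scaling to mitochondrially encoded genes −0.74. With library totals 7 members were called higher and 20 lower, and with upper-quartile scaling 13 higher and 14 lower. Jun, Junb, Klf10 and Srf turned negative with library totals, at −0.17, −0.07, −0.17 and −0.18. With mitochondrial scaling only 3 members were called higher and 23 lower, and Junb, Nr4a2, Maff and Csrnp1 were then negative. Arc, Egr1 and Fos were higher under every scaling, and no member called lower turned positive under any.

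**Figure D3:**
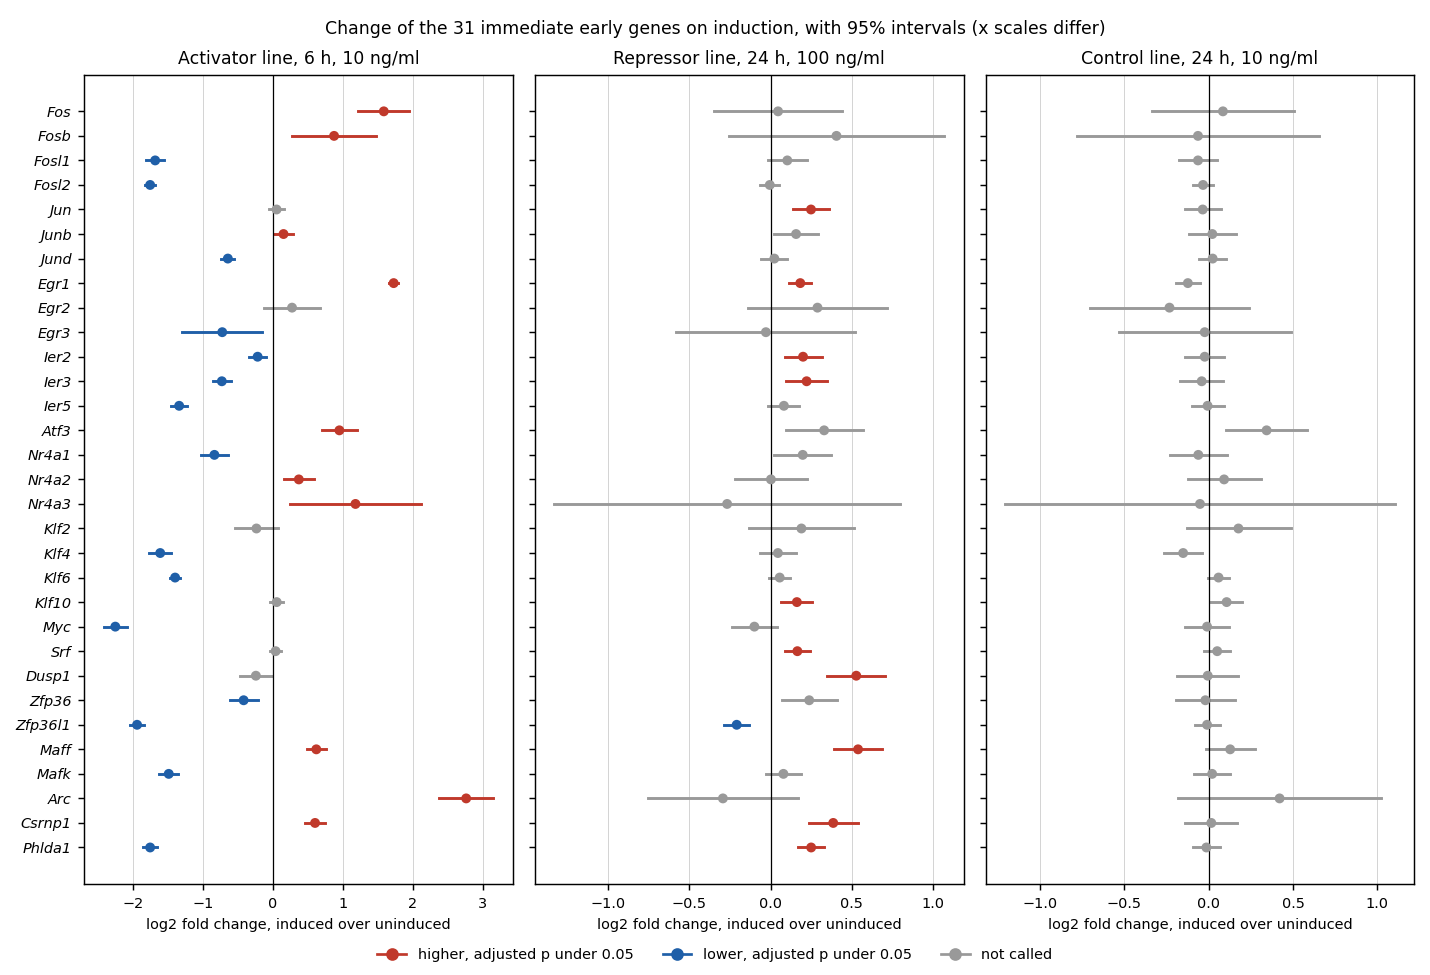
Change of the 31 genes on induction in the activator, repressor and control line (x axis, log2 fold change of induced over uninduced with 95% interval; the x scale differs between panels). Red marks members called higher, blue lower and grey not called: 10 and 15 in the activator line, 10 and 1 in the repressor line and 0 and 0 in the control line.

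A list of 35 other early response genes, among them secreted factors, kinases and inhibitors of the same response, was set beside the members. In the activator line 29 of the 32 tested fell and 0 rose, beside 37.2% lower and 38.2% higher over all genes tested. At an unadjusted p under 0.05 there were 30, beside 76.8% of all genes, and the list's median log2 fold change was −1.37. The largest falls were in Has2, a hyaluronan synthase (log2 fold change −2.85), Ier5l (−1.91) and Plk2, a polo-like kinase (−1.89). Of the signal relay to SRF and CREB, 12 of 25 genes rose (48%) and 10 fell (40%), near the shares over all genes. Crem, the cyclic AMP response modulator, and Nras rose by log2 values of 0.68 and 0.35, and Mapk14 (p38), the ternary complex factor Elk3 and the SRF cofactor Mrtfa fell by 0.99, 0.89 and 0.71.

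Among dimer partners of AP-1 and Maf proteins, 2 of 10 tested rose (20%) and 7 fell (70%), against 38.2% and 37.2% of all genes. Batf3, a partner of JUN, rose (log2 fold change 2.24, adjusted p = 2.66e-14), and Cebpb, a bZIP factor, fell by 1.36. Among genes that bind AU-rich elements or carry out mRNA decay, 14 of 27 rose (51.9%) and 8 fell (29.6%). Elavl1 (HuR), which stabilises such mRNAs, was higher by 0.52 on the log2 scale, while Zfp36l2, the third Zfp36 paralog, fell by 1.85. Zfp36, Zfp36l1 and Zfp36l2 were thus all lower.

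**Figure D4:**
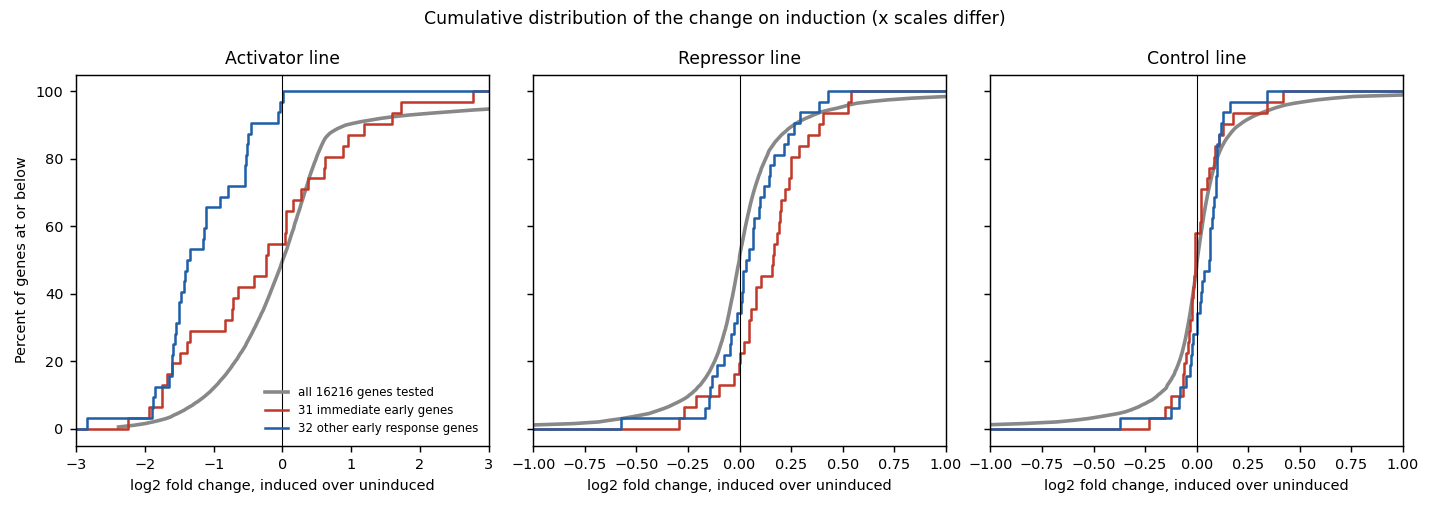
Cumulative percent of genes (y axis) at or below a log2 fold change of induced over uninduced (x axis, scales differ) for the 31 members, 32 other early response genes and all 16216 genes tested. In the activator line the medians were −0.23, −1.37 and 0.00, and in the repressor line 0.16, 0.04 and 0.00.

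Induction of the repressor raised several of the genes slightly. Of the 31 members, 10 rose and 1 fell, where 5.21% of all genes tested were called higher and 4.59% lower. The members' median log2 fold change was 0.16, beside 0.00 over all genes, and 25 of the 31 were positive. No change exceeded 1.45-fold. The risers were Maff, Dusp1, Csrnp1, Phlda1, Jun, Ier3, Ier2, Egr1, Srf and Klf10, and the only member that fell was Zfp36l1. Fos, Fosb, Fosl1 and Fosl2 were not called, and neither were the Nr4a genes, Myc or Arc.

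Maff (ENSMUSG00000042622.13, chromosome 15, 79346621 to 79359076), with the CRE shown above, had 24.4, 21.7 and 23 CPM in induced repressor libraries, against 17.1, 14.7 and 15.7 CPM in uninduced ones. The groups did not overlap (adjusted p = 3.63e-08, log2 fold change 0.54 with SE 0.07). Dusp1 (ENSMUSG00000024190.6, chromosome 17, 26505590 to 26562128), the other member with a CRE in a searched window, had 14.1, 14.1 and 14 CPM against 8.76, 10.2 and 10.4 CPM. Its induced libraries were nearly identical and above all uninduced ones (adjusted p = 7.8e-06, log2 fold change 0.53 with SE 0.09). The annotated span of Dusp1 overlaps Ergic1 on the opposite strand, which has many more counts, but Ergic1 was at −0.01 here and was not called (adjusted p = 0.881). Csrnp1 followed with 19.1, 16.5 and 17.1 CPM against 13.1, 13.3 and 13.8 CPM (adjusted p = 0.000116, log2 fold change 0.39 with SE 0.08).

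Phlda1, which fell in the activator line, rose here to 71.3, 73.1 and 74.9 CPM in induced repressor libraries, against 62.6, 60.7 and 61.2 CPM in uninduced ones. All induced values lay above all uninduced ones (adjusted p = 1.63e-06, log2 fold change 0.25 with SE 0.04). Jun had 52.2, 55 and 48.7 CPM against 46.7, 41.4 and 43.4 CPM (adjusted p = 0.00109, log2 fold change 0.25 with SE 0.05). Ier3 had 27.1, 26.9 and 26.7 CPM against 24, 22.2 and 23 CPM (adjusted p = 0.0134, log2 fold change 0.22 with SE 0.06). For each of these genes the groups did not overlap. Egr1 was at 112 ± 1.34 against 99 ± 4.39 CPM (log2 fold change 0.18, adjusted p = 5.25e-05) and Srf at 117 ± 3.17 against 104 ± 2.23 CPM (log2 fold change 0.17, adjusted p = 0.00256). Zfp36l1 was the exception, with 104, 99 and 99.3 CPM against 112, 119 and 118 CPM (adjusted p = 5.23e-05, log2 fold change −0.21 with SE 0.04).

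The weakest of these calls rested on single libraries. Ier2 was lost without uninduced library 2 or induced library 3 (adjusted p = 0.119 and 0.117), and Ier3 without uninduced library 2 or induced library 2 (adjusted p = 0.103 and 0.0522). Klf10 was lost without uninduced library 1 or 3 (adjusted p = 0.0739 and 0.209) and without induced library 1 or 3 (adjusted p = 0.0652 and 0.0589). DESeq2 did not call Ier2, Ier3 or Klf10 either (adjusted p between 0.092 and 0.0962). Of the other early response genes, 6 of 32 rose (18.8%) and 5 fell (15.6%) in the repressor line, beside 5.21% and 4.59% of all genes tested. Among them were Gadd45g (log2 fold change 0.43), the matricellular gene Ccn1 (0.30) and the chemokine Cxcl1 (−0.57). Of the 3 neural markers tested, 2 rose in the repressor line and the other, at a log2 fold change of −1.29, was not called. Tubb3, the main part of the summed neural markers, was at 52.9 CPM in induced repressor cells, against 34.1 CPM in uninduced ones, while Sox2, Sox10 and Map2 had no count in either group. Of the 9 fibroblast markers tested, 7 fell (77.8%) and 0 rose with this induction, beside the same 4.59% and 5.21% of all genes. Their median log2 fold change was −0.25. The 11 markers summed to 18440 to 18770 CPM in induced repressor libraries, against 21630 to 22100 CPM in uninduced ones. The muscle markers Des and Tnnt2 rose, to 2.56 against 1.19 CPM and to 7 against 4.28 CPM, while Myod1, Myog, Myf5, Pax7 and Actc1 had no count in either group. The part of these shifts in the members' changes was not tested.

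Both inductions called 7 members, 28% of the 25 called in the activator line and 63.6% of the 11 called in the repressor line. Egr1, Maff and Csrnp1 rose and Zfp36l1 fell in both, whereas Ier2, Ier3 and Phlda1 fell in the activator line and rose in the repressor line. Over all genes tested the corresponding shares were 10.9% of the 12215 genes called in the activator line and 83.7% of the 1590 called in the repressor line. The 2 inductions share no library. Egr2 and Klf2 were called in neither. The direct difference between these 2 lines was not tested, and they differ in both dose and time.

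**Figure D5:**
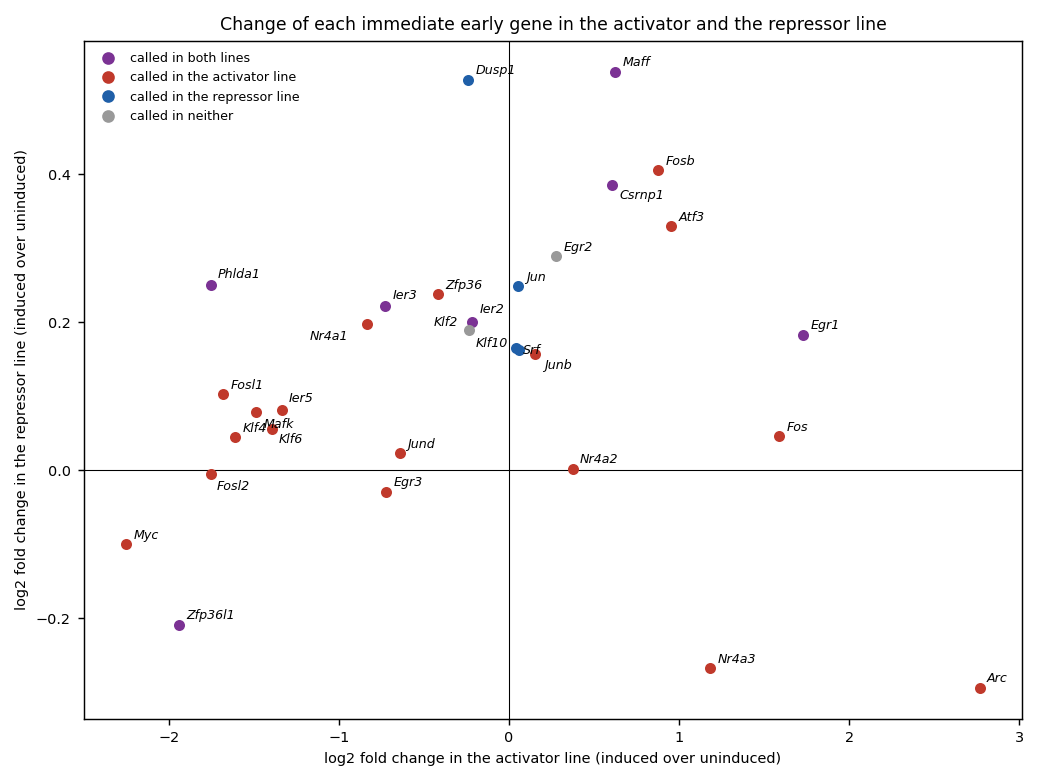
Log2 fold change of each of the 31 genes on induction of the activator (x axis) and of the repressor (y axis); the axes have different scales. Colours mark members called in both lines (7), in the activator line only (18), in the repressor line only (4) or in neither (2).

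In the control line, no change of the 31 genes was detected. No member was called by edgeR, where 0.253% of all genes tested were called higher and 0.21% lower, and DESeq2 and limma-voom called 0 as well. At an unadjusted p under 0.05 there were 4 members (Egr1, Atf3, Klf4 and Klf10), beside 1742 of all 16216 genes. Egr1 had 76.3, 74.2 and 72.8 CPM in induced control libraries, against 82.2, 80 and 80.9 CPM in uninduced ones. These groups did not overlap, yet the difference missed the threshold (adjusted p = 0.108, log2 fold change −0.12 with interval −0.20 to −0.05). Atf3 was at 6.23 ± 0.385 against 4.98 ± 0.638 CPM (adjusted p = 0.223, log2 fold change 0.34 with interval 0.10 to 0.58). Fos (interval −0.34 to 0.51) and Arc (interval −0.18 to 1.02) were too low for small changes to be seen. Of the other early response genes only Ccn1 rose (log2 fold change 0.16, adjusted p = 0.00074).

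The response of the activator line was then compared with that of the control line as an interaction. Here 6 members were higher and 14 lower, beside 30.8% and 33% of all genes tested. Arc led with an interaction log2 value of 2.35 (SE 0.39, adjusted p = 1.85e-07), followed by Egr1 at 1.85 (SE 0.05, adjusted p = 7.54e-50) and Fos at 1.50 (SE 0.28, adjusted p = 5.45e-06). Atf3, Csrnp1 and Maff completed the higher group at 0.61, 0.59 and 0.50. The largest negative values were those of Myc at −2.24 (SE 0.10, adjusted p = 9.98e-12), Zfp36l1 at −1.93 (SE 0.06, adjusted p = 2.52e-35) and Phlda1 at −1.74 (SE 0.07, adjusted p = 3.2e-39). Fosb, Nr4a3, Nr4a2 and Junb, which rose in the activator line, were not shown to differ from the control line (adjusted p = 0.074, 0.148, 0.105 and 0.217). With mitochondrial scaling Atf3, Maff and Csrnp1 turned to −0.09, −0.20 and −0.11. Ier2 (adjusted p = 0.0429) was lost without any 1 of 7 libraries, which were induced activator 1, uninduced activator 2 and 3, induced control 1, 2 and 3, and uninduced control 1 (adjusted p between 0.0566 and 0.169). Zfp36 was lost without induced control library 2 or induced activator library 1 (adjusted p = 0.05 and 0.0594).

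For the repressor line against the control line, 6 members were higher and 1 lower, beside 1.19% and 1.54% of all genes tested. Dusp1 had the largest interaction log2 value, 0.53 (SE 0.13, adjusted p = 0.00614), then Maff with 0.41 (SE 0.10, adjusted p = 0.0106) and Csrnp1 with 0.37 (SE 0.11, adjusted p = 0.0387). Egr1 (0.31, adjusted p = 9.54e-06), Jun (0.29, adjusted p = 0.0231) and Phlda1 (0.26) were the others, and Zfp36l1 was lower (−0.20, SE 0.05, adjusted p = 0.0208). Most of these calls were fragile. Leaving out uninduced control library 2 reduced the higher calls to 2 and ended that of Dusp1 (adjusted p = 0.158), and Maff was lost without that library, induced control library 3 or uninduced repressor library 2 (adjusted p = 0.0926, 0.0646 and 0.0753). Either of the last 2 libraries, left out, also reduced the higher calls to 3. Csrnp1 was called only with all 12 libraries of these lines or when induced repressor 2, induced control 2 or uninduced control 3 was left out (adjusted p up to 0.169 otherwise). Jun was lost without any 1 of induced repressor 1 and 2, uninduced repressor 2 and 3, induced control 1 and 3, and uninduced control 2 and 3 (adjusted p up to 0.114). Zfp36l1 was lost without any 1 of induced repressor 2 and 3, uninduced repressor 2 and 3, induced control 1, and uninduced control 1 and 3 (adjusted p up to 0.0955), which left 0 lower. DESeq2 called 2 higher and 0 lower. The calls of Egr1 and Phlda1 held in each of these alternatives.

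Before induction the lines already differed. In uninduced activator against uninduced control cells, 4 members were higher and 10 lower, beside 8.92% and 10.5% of all genes tested. Fosl1 was at 41.9, 40.1 and 40.8 CPM in uninduced activator libraries, against 28.7, 31.5 and 29 CPM in uninduced control libraries, with no overlap (adjusted p = 1.18e-10, log2 fold change 0.46 with SE 0.05). Egr1 was higher by a log2 value of 0.17 (adjusted p = 0.000192). Ier3 and Myc were higher by log2 values of 0.26 (adjusted p = 0.000769) and 0.20 (adjusted p = 0.0312), and the call of Myc was lost without uninduced activator 2 or 3 or uninduced control 1 or 2 (adjusted p between 0.0722 and 0.124).

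Dusp1 was the lowest relative to control, with 7.05, 6.16 and 6.92 CPM in uninduced activator cells against 8.74, 12.3 and 10.6 CPM in uninduced control cells (adjusted p = 1.64e-07, log2 fold change −0.66 with SE 0.10). Atf3 at −0.36 (adjusted p = 0.0453) was lost without uninduced activator 1 or 2 or uninduced control 1 or 3 (adjusted p between 0.127 and 0.193). Klf4 was at −0.29 (SE 0.06, adjusted p = 8.28e-05). Fosl2, Jun, Jund, Klf6, Srf, Zfp36l1 and Phlda1 were the others called lower, between −0.27 and −0.13. Srf was lost without uninduced control library 2 or uninduced activator library 1 (adjusted p = 0.15 and 0.177), and Phlda1 without the same libraries (adjusted p = 0.108 and 0.0803).

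Uninduced repressor cells were closer to uninduced control cells: 2 members were higher and 1 lower, beside 0.863% and 0.697% of all genes tested. Arc had 1.81, 1.48 and 1.84 CPM in uninduced repressor libraries, against 0.279, 0.825 and 1.05 CPM in uninduced control libraries (adjusted p = 0.00168, log2 fold change 1.30 with SE 0.27). The difference rested in part on the low uninduced control library 1, without which it was not called (adjusted p = 0.112). Egr1 was at 95.5, 97.6 and 104 CPM against 82.2, 80 and 80.9 CPM, with no overlap (adjusted p = 1.2e-08, log2 fold change 0.29 with SE 0.04). Phlda1 was at 61.5 ± 0.967 against 68.5 ± 3.05 CPM (adjusted p = 0.0213, log2 fold change −0.16 with SE 0.04), a call lost without uninduced repressor 2 or 3 or uninduced control 2 or 3 (adjusted p between 0.0764 and 0.255).

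Across the 6 groups, 11 members had their highest mean level in induced activator cells and 16 their lowest there. Another 12 were highest in induced repressor cells. The same counts were not made over all genes, of which 38.2% were called higher and 37.2% lower in the activator induction. Whether these extremes are particular to the members was therefore not tested. With CPM of library totals in place of TMM scaling, the number highest in induced activator cells was 7.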

How the data were processed

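The data are total RNA libraries of 3 mouse embryonic fibroblast lines, stranded and rRNA-depleted per the labels' protocols. The authors deposited 1 table of whole-number read counts per gene, with no normalization; mm10 is the build named in the submitters' processing notes. Neither labels nor notes name the aligner, the counting tool, the annotation or the strand option, so reads of genes that overlap may be split either way. Names and coordinates come from GENCODE M21 (GRCm38), matched on the ID without its version for 47310 of 47937 IDs; the other 627 held 0.042% of counts. Promoter windows are from RefSeq (GRCm38.p6), and the 3′ UTR of 1 principal coding transcript per gene was used.

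Genes were filtered with filterByExpr (0.487 CPM in at least 3 libraries) and tested with edgeR 4.0.16 in R 4.3.3: TMM, robust quasi-likelihood fit of all 18 libraries with 1 coefficient per group, 12 residual degrees of freedom, Benjamini-Hochberg adjustment over 16216 genes, common biological coefficient of variation 0.0246. The method was checked on simulated counts in which few genes changed, as many up as down. That check does not cover the activator induction, in which 12215 of 16216 genes were called. Alternatives were DESeq2 1.42.0, limma-voom 3.58.1, other scalings, no filter, only the groups compared, replicate blocks and leaving out each library. No libraries were duplicates, and no shared deviation of same-numbered libraries was seen across groups. The members and lists were chosen with earlier results of these data known. Named with full statistics are up to 6 called members per direction in an induction and up to 3 elsewhere, by size of change; Fos, Jun, Egr, Nr4a and Klf family members, Srf, Myc, Atf3, Dusp1 and Zfp36 may have values in any comparison, and up to 3 called genes per direction come from each context list. One gene that this rule names in a context list is not reported here.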

Additional observations from a re-analysis of the deposited data

Results flagged for a closer look

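The responses of the lines differed in direct tests of the difference (edgeR interaction terms). Between the activator and the control line, 6 members (19.4%) were higher and 14 (45.2%) lower, beside 30.8% and 33% of all genes tested. Whether these shares differ from those of all genes was not tested. The interaction log2 values were 2.35 for Arc, 1.85 for Egr1 and 1.50 for Fos, and −2.24 for Myc, −1.93 for Zfp36l1 and −1.74 for Phlda1. Between the repressor and the control line, 6 members were higher and 1 was lower, beside 1.19% and 1.54% of all genes tested. The values were 0.53 for Dusp1, 0.41 for Maff, 0.37 for Csrnp1 and −0.20 for Zfp36l1. Each of these calls was lost when certain single libraries were left out, whereas those of Egr1 and Phlda1 held. The activator line was induced for 6 h and the control line for 24 h, and the repressor line received 100 ng/ml and the control line 10 ng/ml of doxycycline, so effector, time and dose cannot be told apart.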

How the results depend on the processing

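Scaling to mitochondrially encoded genes, which took a larger share of counts in induced activator libraries, moved the most counts: members called were then 3 higher and 23 lower in the activator induction, 6 higher in the repressor induction, 3 higher and 22 lower in the activator interaction, 0 lower in the repressor interaction, 1 higher in uninduced activator cells and 0 lower in uninduced repressor cells. In the activator induction it also turned Jun (−0.69), Junb (−0.59), Egr2 (−0.47), Nr4a2 (−0.37), Klf10 (−0.69), Srf (−0.71), Maff (−0.12) and Csrnp1 (−0.14) negative, and in the activator interaction Jun (−0.61), Junb (−0.57), Atf3 (−0.09), Nr4a2 (−0.42), Maff (−0.20) and Csrnp1 (−0.11). Library totals turned Jun (−0.17), Junb (−0.07), Klf10 (−0.17) and Srf (−0.18) negative in the activator induction, gave 0 lower in the repressor interaction and left 7 members highest in induced activator cells. Upper-quartile scaling gave 10 higher in the activator interaction. DESeq2 gave 2 higher and 0 lower in the repressor interaction and 1 higher and 0 lower in uninduced repressor cells; fits of the compared groups alone gave 2 lower in the repressor induction and 3 lower in uninduced repressor cells. Apart from the scalings, the cause was not tested.

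Leaving out 1 library at a time gave 7 to 11 higher and 14 to 16 lower in the activator induction, 8 to 11 higher in the repressor induction, 2 to 7 higher and 0 to 1 lower in the repressor interaction, and 1 to 2 higher and 0 to 1 lower in uninduced repressor cells. Deviations of same-numbered libraries correlated between −0.03 and 0.03, so no shared deviation by number was seen. Whether libraries of the same number were handled together cannot be read from this. With a replicate block across lines the activator induction had 10 higher and 15 lower and the repressor induction 11 higher and 1 lower, and within each line 10 and 16, and 11 and 1, the added lower call being Dusp1 (adjusted p = 0.0479). Under alternatives keeping all libraries, 1793 outcomes of single members were counted as unchanged, 43 lost a call, 37 gained one and 18 reversed. Those counted as unchanged include outcomes with no call in either setting, such as all of those in the control line. The number 1793 is therefore not a count of calls that held. Reversals of sign include members without a call in the main test, such as Jun, Klf10, Srf and Egr2 in the activator induction. Counts limit Arc, Fosb and Nr4a3 most.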
